A study of Rattus norvegicus with 17 samples.

Results

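The genes described here make cholesterol, control its synthesis, and move it into, within and out of cells. A list of 33 genes was set by name from this biology. Of these, 32 had a row among the 17251 genes of the expression table, and Sc5d, a sterol desaturase, had none under that symbol. All 32 passed the filter on low values (at least 1 TPM in at least 3 rats), as did 13105 genes in all. They comprise 18 enzymes of synthesis and 14 genes of SREBP control, of transport and esterification, and of liver X receptor control. RNA was taken from the meibomian gland (MG), the sebaceous gland of the eyelid that secretes the lipids of the tear film, in 17 rats. Wild-type (WT) rats were compared with P1.hMR rats, a line on the Sprague-Dawley background that carries the human mineralocorticoid receptor (MR) gene NR3C2 under its own proximal P1 promoter. P1 is not specific to one cell type, so the transgene is not limited to gland cells. All rats were female and 10 to 12 weeks old. The upper eyelids of the UVB rats were shaved and exposed daily to UVB light for 5 days, and the rats were killed after those 5 days. Control rats of the same age and sex were not exposed, and whether their eyelids were shaved is not stated. The groups were Control WT (n = 4), Control P1.hMR (n = 5), UVB WT (n = 3) and UVB P1.hMR (n = 5).

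Cholesterol is built from acetyl-CoA through mevalonate to isoprene units, which are joined to squalene, closed into lanosterol and trimmed to cholesterol. When sterols in the endoplasmic reticulum run low, the escort protein SCAP carries the SREBP transcription factors to the Golgi for activation, and the nuclear fragments switch on the genes of synthesis, while INSIG proteins hold the complex back when sterols are plentiful. Oxidised sterols activate the liver X receptors, which switch on the efflux pumps ABCA1 and ABCG1. Meibocytes, the lipid-filled cells of the MG, fill with wax and cholesteryl esters and burst to release them as meibum.

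Expression was measured as TPM, a share of all transcripts that is scaled to their length, which allows genes to be compared with each other. TPM keeps no read counts, so the number of reads behind a value is unknown and the error given is the spread between rats. The study's methods give a range of mapped reads, but not the reads behind each value. Human NR3C2 was listed at 0 in every WT rat and at 5.31 to 9.31 TPM in the P1.hMR rats. Within groups, the lowest Spearman correlation between rats over all genes was 0.9873. Meibocyte markers such as Scd, the stearoyl-CoA desaturase, and Awat2, a wax synthase, were among the transcripts with high levels, and the 12 genes of that list summed to between 40190 and 56200 TPM per rat. Control WT replicate 1 had the highest level of its group for 16 of the 18 enzymes, and so did UVB WT replicate 2 for 16 of the 18. Counts in WT are therefore also given without each of them.

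The unexposed gland expressed the pathway at high levels. Levels are given as the mean ± SD over all rats of a group. In Control WT rats the 32 genes together took 1.32% to 1.67% of all listed TPM, and the group means ran from 2175 ± 267 TPM (SD, n = 4) for Hmgcs1 down to 7.89 ± 0.93 TPM for Ggps1. Hmgcs1, the cytosolic HMG-CoA synthase that commits acetyl units to mevalonate, ranked 29 of 17251 genes by mean level. Soat1, which esterifies cholesterol for storage and secretion, ranked 76 with 1428 ± 201 TPM. The sterol C4-methyl oxidase Msmo1 ranked 77 with 1427 ± 264 TPM, and the ranges of these 2 genes overlapped. Farnesyl diphosphate synthase Fdps stood at 1207 ± 198 TPM and Dhcr7, which carries out the last reduction of one branch of the pathway, at 1121 ± 102 TPM. Insig1 led the SREBP control genes at 399 ± 33.6 TPM, the liver X receptors Nr1h2 and Nr1h3 stood at 61.3 ± 2.86 TPM and 56.6 ± 3.91 TPM, and the efflux pump Abcg1 at 154 ± 10.9 TPM was above Abca1 at 46.6 ± 6.08 TPM.

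**Figure D1:**
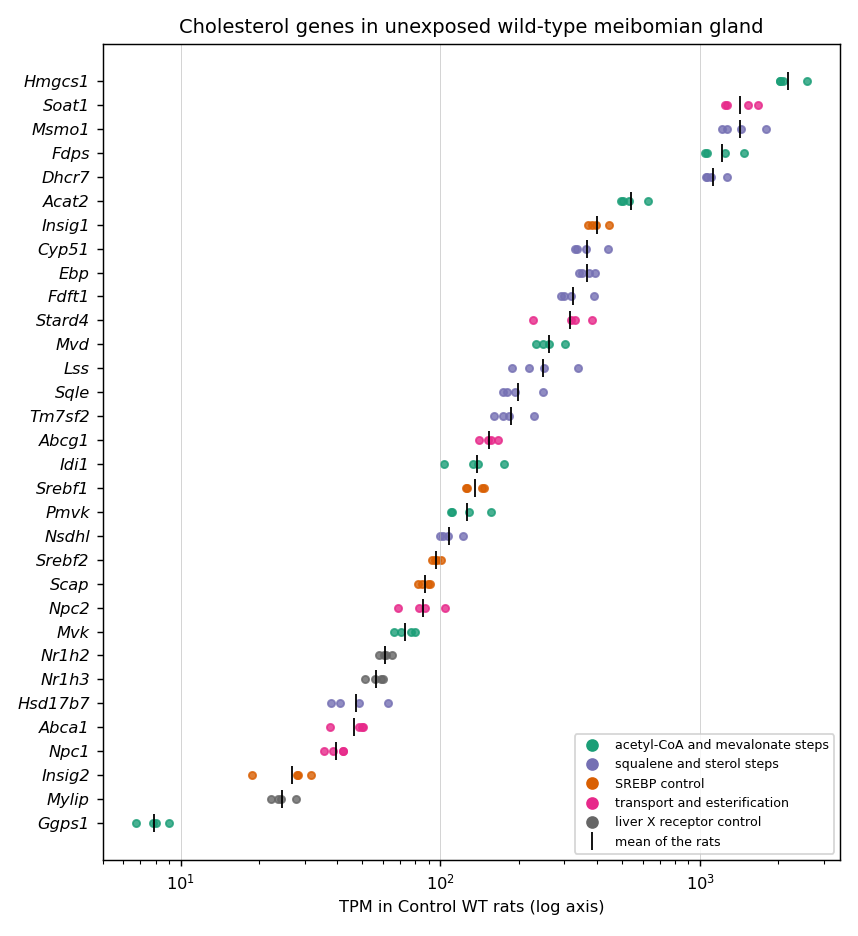
Level of each of the 32 genes in the 4 Control WT rats, in TPM on a log axis, ordered by the mean. Points are rats, coloured by the gene's role, and the black bar is the mean. Hmgcs1 stands at the top with a mean of 2175 TPM and Ggps1 at the bottom with 7.89 TPM.

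Promoter sequence was read for the genes as a description of what they share. RefSeq (assembly GRCr8, which is not the build of the expression values) gave a window from 250 bases before to 50 bases after the start for 27 of the 32 genes, in 28 windows because Srebf1 has 2. Pmvk, Fdft1, Sqle, Stard4 and Abcg1 were not matched. The letters CCAAT, on either strand, were present in 20 of the 28 windows (71.4%) and in 12 of the 15 windows of synthesis enzymes. They were present in 37.5% of all 33469 windows and in 36.9% of the 10968 windows of tested genes. The letters TCACNCCAC, a form of the sterol regulatory element searched on both strands, were in none of the 28 windows and in 1.12% of all windows. No matches of different motifs overlapped. The CCAAT letters and the receptor half-sites searched below were chosen after the data and the sequences were seen, and a match is a description of sequence only. The windows of Ebp, Mvk and Insig1 are shown because Ebp and Mvk rose with UVB in both genotypes while Insig1, a target of the same SREBPs, did not. Capitals mark CCAAT, or its complement ATTGG.
Ebp, chrX:16971212-16971511, plus strand: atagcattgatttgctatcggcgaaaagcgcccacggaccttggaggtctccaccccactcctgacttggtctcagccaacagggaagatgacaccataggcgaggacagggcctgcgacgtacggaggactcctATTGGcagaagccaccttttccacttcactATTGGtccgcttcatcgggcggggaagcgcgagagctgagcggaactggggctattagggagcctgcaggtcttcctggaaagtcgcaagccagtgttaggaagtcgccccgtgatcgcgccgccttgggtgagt
Mvk, chr12:47819454-47819753, minus strand: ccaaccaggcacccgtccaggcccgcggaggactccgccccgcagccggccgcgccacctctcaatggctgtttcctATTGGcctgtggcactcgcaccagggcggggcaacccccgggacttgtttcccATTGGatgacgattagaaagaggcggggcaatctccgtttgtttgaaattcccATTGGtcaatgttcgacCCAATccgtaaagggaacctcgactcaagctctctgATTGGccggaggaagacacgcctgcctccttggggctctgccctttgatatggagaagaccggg
Insig1, chr4:8057720-8058019, minus strand: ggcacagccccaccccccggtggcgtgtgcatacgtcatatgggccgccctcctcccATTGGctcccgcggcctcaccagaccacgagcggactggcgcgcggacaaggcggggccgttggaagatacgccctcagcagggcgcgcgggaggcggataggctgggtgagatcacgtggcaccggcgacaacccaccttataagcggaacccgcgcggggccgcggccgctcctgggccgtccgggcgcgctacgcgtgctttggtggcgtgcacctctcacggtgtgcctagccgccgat
In the Mvk window, ATTGG began at positions -173, -120, -67 and -14 from the start, with a CCAAT at -50. The Ebp window held ATTGG at -115 and -85, and the Insig1 window held it once, at -193. These windows do not show that the letters go with the UVB response. Among genes that rose in both genotypes, Nsdhl and Npc2 also held them more than once, while Acat2 and Cyp51 held none. Among genes that passed in neither genotype, Hmgcs1, Hsd17b7, Idi1, Msmo1, Tm7sf2 and Mylip held them more than once. Srebf1, which also passed in neither, held them at -169, -131 and -108 over its 2 windows. The window of Abca1 is shown because it was the gene that fell most. Its capitals mark TGACC and TAACC separated by 5 bases, a pair of half-sites of the kind that liver X receptors bind, beginning at -70. This pair was in 1 of the 28 windows and in 0.0538% of all windows. Because the letters were chosen with the sequences seen, the match in Abca1 is not a test.
Abca1, chr5:72596424-72596723, minus strand: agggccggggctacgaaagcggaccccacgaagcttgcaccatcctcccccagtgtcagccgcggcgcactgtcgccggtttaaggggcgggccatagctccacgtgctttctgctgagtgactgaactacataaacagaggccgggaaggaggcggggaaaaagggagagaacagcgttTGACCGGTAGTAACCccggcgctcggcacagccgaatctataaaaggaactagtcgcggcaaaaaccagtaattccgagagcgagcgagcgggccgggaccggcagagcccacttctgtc

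At an adjusted p under 0.05 alone, 10 of the 18 synthesis enzymes rose modestly with UVB in WT rats (11.2% of all genes). In P1.hMR rats 10 rose (18.5% of all genes), 8 of them also in WT. The efflux pump Abca1 fell in each genotype. Squalene synthase Fdft1 rose 1.45-fold in the WT and 1.6-fold in the transgenic rats, and Abca1 fell to 0.612 and 0.677 of the control level. A gene was called changed when limma gave an adjusted p under 0.05 and the log2 fold change, on the log2(TPM + 1) scale, was 0.5 or more in size. In WT rats 3 of the 32 genes were called (9.38%), against 7.91% of all genes tested. Fdft1 and Ebp were higher (3.92% of all genes) and Abca1 was lower (3.98%). In P1.hMR rats 3 of 32 were called, against 10.8% of all genes. Pmvk and Fdft1 were higher (5.05%) and Abca1 was lower (5.71%). At this threshold the shares were thus near those of the whole table. Most changes were smaller than 0.5, so the genes were also counted at the adjusted p alone, a choice made after the values were seen. "Rose" and "fell" below refer to this count.

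In WT rats 11 genes rose and 1 fell, or 34.4% and 3.12% of the 32, against 11.2% and 10.3% of all genes. In P1.hMR rats 12 rose and 2 fell, or 37.5% and 6.25%, against 18.5% and 20.6%. In both directions together these were 37.5% of the genes against 21.5% in WT, and 43.8% against 39.1% in P1.hMR. Without Control WT replicate 1, 14 genes rose and 3 fell in WT, and without UVB WT replicate 2, 5 rose and 2 fell. The ranges of control and UVB rats did not overlap for 7 higher and 1 lower gene in WT (14.0% and 12.6% of all genes) and for 10 higher and 1 lower in P1.hMR (13.2% and 14.0%). Past the adjusted p in both genotypes were 10 genes, each with the same sign, which is 83.3% of the WT list and 71.4% of the P1.hMR list. Over all genes tested, 2300 were past it in both, or 81.6% and 44.9%. The median log2 fold change of the 32 genes was 0.16 in each genotype, beside 0.01 over all genes in WT and -0.02 in P1.hMR. With 1 rat left out it ran from 0.13 to 0.27 in WT, where it was 0.27 without Control WT replicate 1, and from 0.15 to 0.18 in P1.hMR.

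**Figure D2:**
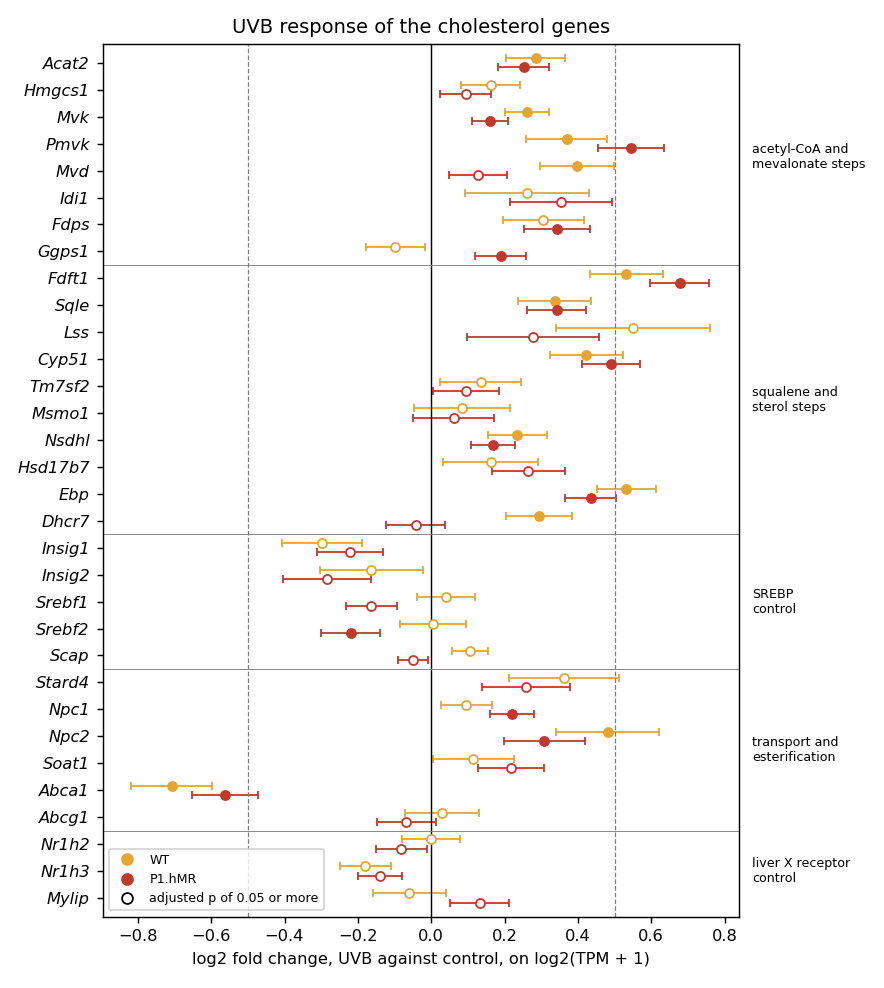
Log2 fold change of UVB against control rats for each gene, on the log2(TPM + 1) scale, in WT (orange) and P1.hMR (red) rats, grouped by role. Points are estimates with their standard errors, filled where the adjusted p was under 0.05, and dashed lines mark an absolute change of 0.5. Nearly all enzymes lie to the right of 0 and Abca1 lies far to the left, at -0.71 in WT and -0.56 in P1.hMR.

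Among the 8 enzymes of the acetyl-CoA and mevalonate steps, 4 rose in WT, 5 rose in P1.hMR and none fell. Of all genes, 11.2% rose in WT and 18.5% in P1.hMR, and 10.3% and 20.6% fell. The median log2 fold change was 0.27 and 0.22. Pmvk, phosphomevalonate kinase, had the largest change of the group in P1.hMR rats. Its level was 135, 113, 132, 124 and 128 TPM in P1.hMR rats without UVB and 201, 188, 192, 164 and 178 TPM in those with UVB. In Control WT rats it was 156, 129, 110.2 and 111 TPM, and in UVB WT rats 139, 185 and 165 TPM. The P1.hMR groups did not overlap, whereas Control WT replicate 1 lay within the range of the UVB WT rats. The log2 fold change was 0.54 ± 0.09 (SE), adjusted p = 0.000316 in P1.hMR and 0.37 ± 0.11 (SE), adjusted p = 0.0296 in WT. In WT the adjusted p reached up to 0.145 when Control WT replicate 3 or 4 or UVB WT replicate 2 or 3 was left out.

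Acat2, which condenses acetyl-CoA units, ranged over 509.5 to 602 TPM in Control P1.hMR and 640.4 to 699 TPM in UVB P1.hMR rats, with no overlap. Its log2 fold change was 0.25 ± 0.07 (SE), adjusted p = 0.00712, and in WT 0.28 ± 0.08 (SE), adjusted p = 0.0197. Mevalonate kinase Mvk ranged over 66.3 to 79.6 TPM in Control WT and 85.7 to 90.2 TPM in UVB WT rats, again without overlap. It rose in WT (0.26 ± 0.06 (SE), adjusted p = 0.00723) and in P1.hMR (0.16 ± 0.05 (SE), adjusted p = 0.02). These changes amounted to no more than 1.22-fold, and 2 of them passed the adjusted p only with certain rats included. For Acat2 in WT the adjusted p reached up to 0.105 without Control WT replicate 3 or 4 or UVB WT replicate 2, and for Mvk in P1.hMR up to 0.0571 without Control P1.hMR replicate 2 or UVB P1.hMR replicate 5.

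The remaining genes of this stretch differed in which genotype passed the test. Mvd, the mevalonate diphosphate decarboxylase, rose in WT by 0.40 ± 0.10 (SE), adjusted p = 0.0102, from 261 ± 29.6 TPM to 344 ± 38.0 TPM, and had a change of 0.13 ± 0.08 (SE), adjusted p = 0.237 in P1.hMR. Fdps rose in P1.hMR by 0.34 ± 0.09 (SE), adjusted p = 0.00699, and its change in WT was of similar size (0.31 ± 0.11 (SE), adjusted p = 0.0567). Ggps1, which makes geranylgeranyl diphosphate for protein prenylation on a side branch, ranged over 6.62 to 7.47 TPM in Control P1.hMR and 7.62 to 8.47 TPM in UVB P1.hMR rats and rose (0.19 ± 0.07 (SE), adjusted p = 0.0323). In WT its value was -0.10 ± 0.08 (SE), adjusted p = 0.408, the only enzyme with a negative estimate there. None of these 3 passed the interaction test of the difference between genotypes (adjusted p = 0.711 for Mvd, 0.976 for Fdps and 0.704 for Ggps1). Mvd in WT did not pass the adjusted p without UVB WT replicate 2 (adjusted p = 0.0599), nor did Ggps1 in P1.hMR when replicate 1, 2 or 3 of the Control P1.hMR or replicate 1, 2, 3 or 4 of the UVB P1.hMR rats was left out (adjusted p up to 0.0737).

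Hmgcs1 and Idi1 did not pass in either genotype. Hmgcs1 stood at 2573, 2019.8, 2077 and 2028 TPM in Control WT and 2481, 2512 and 2276 TPM in UVB WT rats. In Control P1.hMR rats it stood at 2268, 1982, 2268, 2044 and 2096 TPM, and in UVB P1.hMR rats at 2252, 2543, 2146, 2166 and 2277 TPM. The highest value of all 17 rats was that of Control WT replicate 1, and the groups overlapped. The log2 fold change was 0.16 ± 0.08 (SE), adjusted p = 0.184 in WT and 0.09 ± 0.07 (SE), adjusted p = 0.305 in P1.hMR. Idi1, the isomerase of isopentenyl diphosphate, varied widely, over 103 to 176 TPM in Control WT alone, with changes of 0.26 ± 0.17 (SE), adjusted p = 0.299 in WT and 0.35 ± 0.14 (SE), adjusted p = 0.0597 in P1.hMR.

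In the squalene and sterol steps, 6 of the 10 measured enzymes rose in WT (11.2% of all genes) and 5 in P1.hMR (18.5%). None fell (10.3% and 20.6% of all genes). The medians were 0.32 and 0.27. Fdft1, squalene synthase, the first enzyme committed to sterols, changed most in P1.hMR rats. Its level was 391, 299.9, 292 and 318 TPM in Control WT and 508, 418 and 481 TPM in UVB WT rats. In Control P1.hMR rats it was 330.4, 311, 289, 334 and 369 TPM and in UVB P1.hMR rats 524, 463, 526, 571 and 528 TPM. Every UVB rat was above every control rat of either genotype. The log2 fold change was 0.53 ± 0.10 (SE), adjusted p = 0.00199 in WT and 0.68 ± 0.08 (SE), adjusted p = 1.8e-05 in P1.hMR. Its WT change went down to 0.47, under the fold minimum, with Control WT replicate 2 or 3 or UVB WT replicate 1 left out.

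Ebp, the sterol isomerase that moves the ring double bond late in the pathway, rose in both genotypes. Control WT rats had 395, 372, 352 and 342 TPM and UVB WT rats 487, 592 and 509 TPM. Control P1.hMR rats had 421, 368, 362, 359 and 434 TPM and UVB P1.hMR rats 558, 540.1, 535, 475 and 517 TPM. Again no UVB rat reached down to a control rat. The change was 0.53 ± 0.08 (SE), adjusted p = 0.000512 in WT and 0.43 ± 0.07 (SE), adjusted p = 0.000138 in P1.hMR. Without UVB WT replicate 2 the WT change was 0.45.

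Cyp51, the lanosterol demethylase, and Sqle, the squalene epoxidase, also rose in both genotypes. Cyp51 went from 367 ± 51.2 TPM to 491 ± 49.98 TPM in WT (0.42 ± 0.10 (SE), adjusted p = 0.00596). In P1.hMR it went from 369 ± 34.1 TPM to 517 ± 15.3 TPM (0.49 ± 0.08 (SE), adjusted p = 0.000183), just under the fold minimum. Sqle went from 199 ± 33.4 TPM to 249.9 ± 25.1 TPM in WT (0.34 ± 0.10 (SE), adjusted p = 0.0241) and from 199 ± 11.9 TPM to 253 ± 14.4 TPM in P1.hMR (0.34 ± 0.08 (SE), adjusted p = 0.0038). For both genes the P1.hMR groups did not overlap, while in WT Control WT replicate 1 lay above the lowest UVB rat. Nsdhl, the sterol dehydrogenase of C4 demethylation, rose in WT (0.23 ± 0.08 (SE), adjusted p = 0.0385) and, by 1.12-fold, in P1.hMR (0.17 ± 0.06 (SE), adjusted p = 0.0446), with overlapping ranges in each. Of the 18 enzymes, Nsdhl most often failed to pass the adjusted p under other settings, in 11 of 25 for each genotype, with an adjusted p of up to 0.155 in WT and 0.117 in P1.hMR when 1 rat was left out (5 of the 17 rats in WT and 9 in P1.hMR). For Sqle in WT it reached up to 0.0964 without Control WT replicate 2, 3 or 4 or UVB WT replicate 2 or 3.

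Dhcr7 had the largest interaction estimate of the 32 genes. Control WT rats had 1098, 1064, 1270.4 and 1051 TPM and UVB WT rats 1362, 1486 and 1271 TPM. Control P1.hMR rats stood at 1345, 1075, 1265, 1320.0 and 1519 TPM, and UVB P1.hMR rats at 1241, 1208, 1320.0, 1276 and 1252 TPM. The WT groups were separated only narrowly, with the highest control at 1270.4 and the lowest UVB rat at 1270.9 TPM, and the gene no longer passed the adjusted p in WT when any of Control WT replicates 1, 2 and 4 or UVB WT replicates 1 and 2 was left out (adjusted p up to 0.138). The gene rose in WT (0.29 ± 0.09 (SE), adjusted p = 0.033) and had a value of -0.04 ± 0.08 (SE), adjusted p = 0.691 in P1.hMR. The interaction was -0.34 ± 0.12 (SE), unadjusted p = 0.0129, adjusted p = 0.704, so a difference between the genotypes was not established.

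The other 4 measured enzymes did not pass. Lss, which closes squalene epoxide into lanosterol, had the largest estimate of any enzyme in WT at 0.55 ± 0.21 (SE), adjusted p = 0.0777, but it did not pass and its rats spread over 188 to 337 TPM in Control WT and 315 to 407 TPM in UVB WT. In P1.hMR its value was 0.28 ± 0.18 (SE), adjusted p = 0.229. Hsd17b7, the sterol ketoreductase, did not overlap between Control P1.hMR (37.6 to 48.3 TPM) and UVB P1.hMR rats (49.3 to 55.1 TPM), with a change of 0.26 ± 0.10 (SE), adjusted p = 0.0547. In WT its change was 0.16 ± 0.13 (SE), adjusted p = 0.382. Msmo1, the most abundant gene of these steps, had 1796, 1434, 1268 and 1211 TPM in Control WT and 1388, 1821 and 1322 TPM in UVB WT rats. In P1.hMR it had 1529, 1215, 1374, 1202 and 1296 TPM without and 1555, 1492, 1281, 1254 and 1319.7 TPM with UVB. The groups overlapped widely, and the changes were 0.08 ± 0.13 (SE), adjusted p = 0.696 in WT and 0.06 ± 0.11 (SE), adjusted p = 0.694 in P1.hMR. Tm7sf2, a sterol reductase, had changes of 0.13 ± 0.11 (SE), adjusted p = 0.417 and 0.09 ± 0.09 (SE), adjusted p = 0.446.

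**Figure D3:**
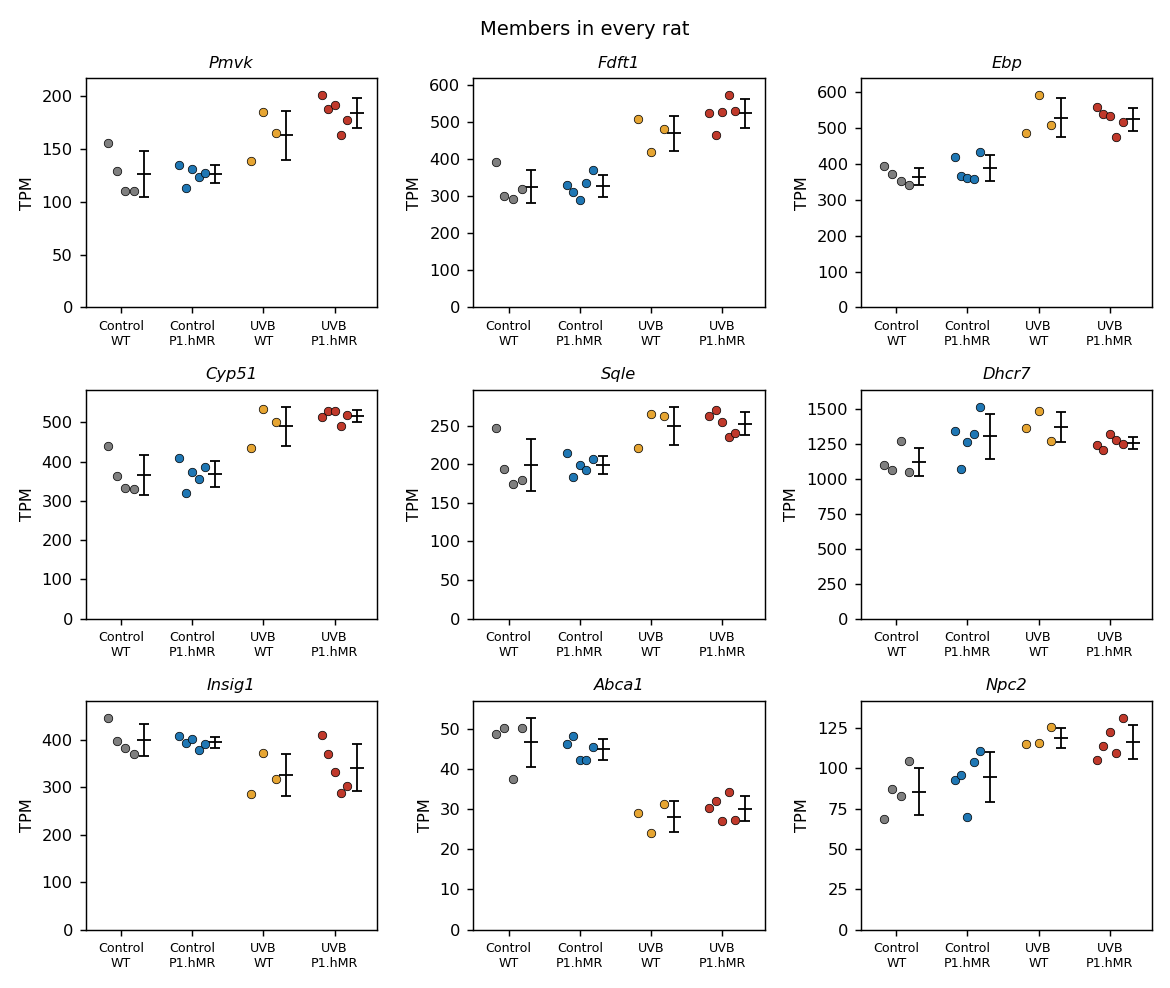
Levels in TPM of Pmvk, Fdft1, Ebp, Cyp51, Sqle, Dhcr7, Insig1, Abca1 and Npc2, in every rat of the 4 groups. Points are rats, and the bar beside them is the mean with its SD. Fdft1, Ebp and Abca1 separate UVB from control rats in both genotypes, Abca1 downward. Dhcr7 and Npc2 overlap in P1.hMR rats, Pmvk, Cyp51 and Sqle in WT rats, and Insig1 in both.

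None of the 5 genes of SREBP control rose, against 11.2% of all genes in WT and 18.5% in P1.hMR. In WT rats 3 of the 5 had higher and 2 lower values (48.8% of all genes had lower ones). None passed the test there, against 21.5% of all genes. In P1.hMR rats all 5 had lower values (52.9% of all genes), and 1 of them, Srebf2, fell (20.6% of all genes). With 5 genes, these counts do not set the group apart from the whole table. Srebf2, the SREBP family member that chiefly drives cholesterol synthesis, stood at 99.4, 87.1, 98.6, 113 and 124 TPM in Control P1.hMR and 91.6, 83.9, 85.7, 87.8 and 95.9 TPM in UVB P1.hMR rats. The ranges overlapped, and the change was -0.22 ± 0.08 (SE), adjusted p = 0.0314, with an adjusted p of up to 0.0879 when replicate 4 or 5 of the control or replicate 2, 3 or 4 of the UVB group was left out. In WT it had 97.0, 95.2, 100.4 and 93.0 TPM without and 100.2, 104 and 86.9 TPM with UVB, a change of 0.00 ± 0.09 (SE), adjusted p = 0.978.

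Insig1, itself a target of the SREBPs and a brake on them, had 447, 398, 382 and 370.3 TPM in Control WT and 286, 373 and 318 TPM in UVB WT rats. Control P1.hMR rats had 409, 393, 402, 379 and 390.1 TPM and UVB P1.hMR rats 411, 371, 332, 289 and 303 TPM. The group means were lower with UVB, but 1 UVB WT rat lay within the control range and 1 UVB P1.hMR rat lay above every control of its genotype. The change missed the threshold in WT (-0.30 ± 0.11 (SE), adjusted p = 0.0552) and in P1.hMR (-0.22 ± 0.09 (SE), adjusted p = 0.0565). Insig2, the second anchor protein, had changes of -0.16 ± 0.14 (SE), adjusted p = 0.438 and -0.28 ± 0.12 (SE), adjusted p = 0.0648. Srebf1, which leans towards fatty acid synthesis, had 0.04 ± 0.08 (SE), adjusted p = 0.755 and -0.16 ± 0.07 (SE), adjusted p = 0.0597. For Scap, the escort of the SREBPs, the values were 0.11 ± 0.05 (SE), adjusted p = 0.125 and -0.05 ± 0.04 (SE), adjusted p = 0.343.

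Among the 6 genes of transport and esterification, Abca1 fell in both genotypes. ABCA1 loads cholesterol and phospholipid onto apolipoproteins outside the cell. Control WT rats had 48.7, 50.1, 37.6 and 50.2 TPM and UVB WT rats 29.0, 24.0 and 31.4 TPM. Control P1.hMR rats had 46.1, 48.2, 42.1, 42.3 and 45.5 TPM and UVB P1.hMR rats 30.2, 31.9, 27.0, 34.4 and 27.2 TPM. All 8 UVB rats were below all 9 control rats. The log2 fold change was -0.71 ± 0.11 (SE), adjusted p = 0.000462 in WT and -0.56 ± 0.09 (SE), adjusted p = 0.000157 in P1.hMR, and the gene kept its call under every alternative that tested a change of 0.5. Abcg1, the pump that passes cholesterol to high-density particles and another liver X receptor target, had changes of 0.03 ± 0.10 (SE), adjusted p = 0.864 in WT and -0.07 ± 0.08 (SE), adjusted p = 0.532 in P1.hMR.

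Of the lysosomal exporters, Npc2 rose in both genotypes and Npc1 in P1.hMR rats. Npc2, the soluble carrier that takes cholesterol from lysosomal lipids, ranged over 68.7 to 104 TPM in Control WT and 115 to 126 TPM in UVB WT rats and rose (0.48 ± 0.14 (SE), adjusted p = 0.0207). It also rose in P1.hMR (0.31 ± 0.11 (SE), adjusted p = 0.0419), where the ranges overlapped and the gene did not pass the adjusted p in 9 of 25 other settings (7 of them with 1 rat left out, adjusted p up to 0.114). In WT it did not pass without Control WT replicate 1 or UVB WT replicate 3 (adjusted p up to 0.0699). Npc1, the membrane protein that receives cholesterol from NPC2, ranged over 32.7 to 41.0 TPM in Control P1.hMR and 42.8 to 46.0 TPM in UVB P1.hMR rats (0.22 ± 0.06 (SE), adjusted p = 0.0079) and had 0.10 ± 0.07 (SE), adjusted p = 0.364 in WT. Macrophage markers moved too: 6 of the 11 tested genes of that list were called higher in each genotype, among them Cd163 and C1qb, against 3.92% of all genes in WT and 5.05% in P1.hMR. None of the 11 was called lower, but Lyz2 and Cd68 had lower values in both genotypes, and Adgre1 and Csf1r in P1.hMR. The summed level of the list's 12 genes nevertheless overlapped, at 192.7 to 523.5 TPM in Control WT, 233.4 to 384.5 in UVB WT, 194.7 to 458.3 in Control P1.hMR and 330.6 to 457.7 in UVB P1.hMR, led by Lyz2. Msr1 of this list did not pass the filter on low values, and Adgre1 had group means of 0.91 to 1.3 TPM. The part of macrophages in the values of Npc1, Npc2 and Abca1 was not tested.

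Soat1 and Stard4 did not pass. Soat1 had 1661, 1531, 1272 and 1248 TPM in Control WT and 1382, 1607 and 1628 TPM in UVB WT rats. Control P1.hMR rats had 1587, 1229, 1317, 1177 and 1329.8 TPM and UVB P1.hMR rats 1544, 1629, 1532, 1449 and 1525 TPM. The groups overlapped in both genotypes, and the changes were 0.11 ± 0.11 (SE), adjusted p = 0.467 and 0.22 ± 0.09 (SE), adjusted p = 0.0594. Stard4, which carries sterols through the cytosol, had 0.36 ± 0.15 (SE), adjusted p = 0.0909 in WT and 0.26 ± 0.12 (SE), adjusted p = 0.107 in P1.hMR, where its lowest UVB rat (363 TPM) was just above the highest control (362 TPM).

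None of the 3 genes of liver X receptor control passed the test in either genotype, against 21.5% of all genes in WT and 39.1% in P1.hMR. With 3 genes, this does not set them apart from the whole table. Nr1h2, the more widely expressed receptor, had 61.7, 65.1, 58.2 and 60.4 TPM in Control WT and 59.5, 67.6 and 57.2 TPM in UVB WT rats. In P1.hMR it had 60.0, 58.2, 56.8, 66.7 and 63.8 TPM without and 59.7, 53.1, 66.4, 52.3 and 57.5 TPM with UVB, and no group stood apart. Its changes were -0.00 ± 0.08 (SE), adjusted p = 0.997 and -0.08 ± 0.07 (SE), adjusted p = 0.35. Nr1h3, the other receptor, had -0.18 ± 0.07 (SE), adjusted p = 0.0764 and -0.14 ± 0.06 (SE), adjusted p = 0.0654. Mylip, a ubiquitin ligase that removes lipoprotein receptors and is a target of these receptors, had -0.06 ± 0.10 (SE), adjusted p = 0.702 and 0.13 ± 0.08 (SE), adjusted p = 0.206.

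Summed over the 18 enzymes, the level was 10516, 8687, 8447 and 8043 TPM in Control WT and 10225, 11705 and 10152 TPM in UVB WT rats. In Control P1.hMR rats it was 9754, 8074, 9067, 8500 and 9367 TPM, and in UVB P1.hMR rats 10604, 10603, 10206, 9670 and 10273 TPM. The sum overlapped in WT through Control WT replicate 1 and in P1.hMR by a small margin. Hmgcs1 alone made up 21.0% to 25.2% of these sums. Of the 18 enzymes, 17 had a positive estimate in each genotype, as did 51.2% of all genes in WT and 47.1% in P1.hMR, with medians of 0.29 in WT and 0.26 in P1.hMR. Among them, the sign of Msmo1 in WT and of Dhcr7 in P1.hMR changed under other settings. The median change of the enzymes against the control mean was positive in every UVB rat, from 0.19 to 0.39 in WT and from 0.18 to 0.29 in P1.hMR.

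The meibocyte markers moved in both directions. Their sum was 46670 to 56200 TPM in Control WT, 42490 to 49260 in UVB WT, 45870 to 51340 in Control P1.hMR and 40190 to 47800 in UVB P1.hMR. At the adjusted p, 3 of the 12 were higher and 4 lower in WT, and 1 higher and 3 lower in P1.hMR. Of all genes, 11.2% were higher and 10.3% lower in WT, and 18.5% and 20.6% in P1.hMR. In P1.hMR the counts thus did not stand out from the whole table. Awat2, Cidea and Plin2 were lower in both genotypes, and Elovl3, a fatty acid elongase, was higher in both. The ratio of the enzyme sum to the marker sum, computed after the values were seen, was 0.169 to 0.19 in the 9 control rats and 0.222 to 0.256 in the 8 UVB rats. Without Scd, the most abundant marker, it was 0.361 to 0.444 and 0.553 to 0.635. The marker sum without Scd was itself lower with UVB, at 16192 to 19179 TPM against 19626 to 25006 TPM in control rats. Its largest part was Awat2, with means of 11610 TPM in Control WT, 7380 in UVB WT, 10455 in Control P1.hMR and 7280 in UVB P1.hMR. The ratio thus also carries the fall of Awat2. In bulk tissue, fewer cells of a type and less RNA per cell cannot be told apart. The other lists of cell markers differed from each other. All 9 tested markers of dividing cells had higher values, 8 of them past the adjusted p. All 8 of the hair shaft had lower values, 4 past it in WT and 2 in P1.hMR. Of 8 tested markers of skeletal muscle, 8 had lower values in WT and 6 in P1.hMR. With 1 past it in each, their medians were -0.35 and -0.29. The falls of muscle markers, and of hair shaft in P1.hMR, were not clearly above the shares of all genes. Of 9 tested markers of suprabasal epidermis, none rose and 1 fell in WT, and 2 rose and 1 fell in P1.hMR. Their medians were 0.01 and -0.01. The part of these cell types in the values of the cholesterol genes was not tested.

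**Figure D4:**
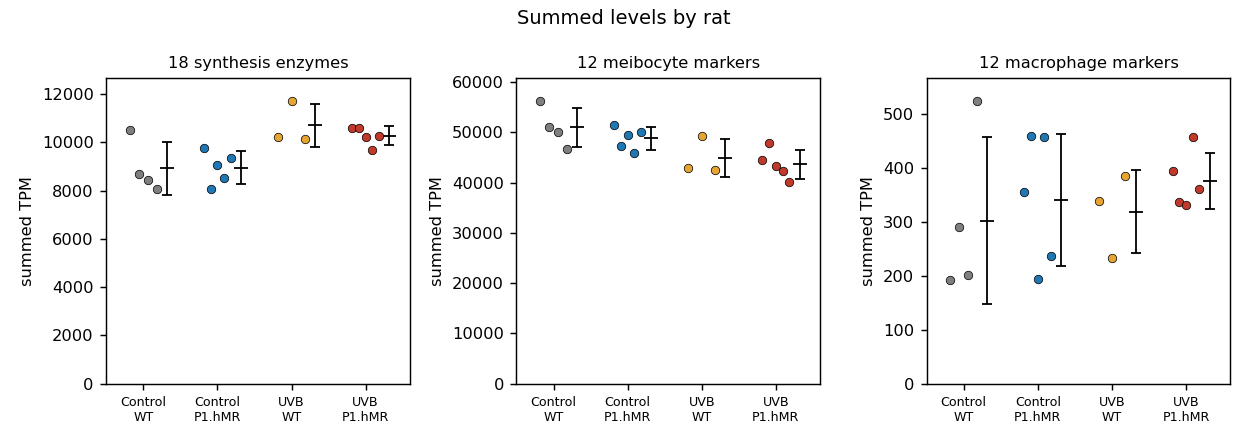
Summed TPM per rat of the 18 synthesis enzymes, of 12 meibocyte markers and of 12 macrophage markers in the 4 groups. Points are rats, and the bar beside them is the mean with its SD. The enzyme sum is highest in UVB WT replicate 2 at 11705 TPM, while the meibocyte sum is highest in Control WT replicate 1 at 56200 TPM.

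P1.hMR rats were compared with WT rats to ask what the human MR adds, without and with UVB, and no cholesterol gene was called, while 0.00763% of all genes were called without UVB, 0.0229% with UVB and 0.0% in the interaction. None passed the adjusted p in limma without UVB, with UVB or in the interaction of genotype and UVB. Of all genes, 0.00763% were past the adjusted p without UVB, 0.0305% with UVB and 0.0% in the interaction, so few calls were made anywhere in the table. At an unadjusted p under 0.05 there were 2 of the 32 genes without UVB (4.03% of all genes), 2 with UVB (10.3%) and 3 in the interaction (6.92%). The median log2 difference of the 32 genes was 0.01 without and -0.00 with UVB.

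Without UVB, the 2 genes were Dhcr7 and Insig2, both with higher values in P1.hMR rats. Dhcr7 had 1121 ± 102 TPM in Control WT and 1305 ± 159.9 TPM in Control P1.hMR rats. The log2 difference was 0.21 ± 0.08 (SE) with unadjusted p = 0.0181 and adjusted p = 0.998. Insig2 had 18.9, 28.1, 31.8 and 28.3 TPM in Control WT and 29.3, 30.9, 29.4, 38.1 and 34.7 TPM in Control P1.hMR rats, a difference of 0.29 ± 0.12 (SE) with unadjusted p = 0.0346 and adjusted p = 0.998. The ranges overlapped for both genes.

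With UVB, the genes were Srebf1 and Mylip. Srebf1 had 134, 146 and 138 TPM in UVB WT and 129, 119, 127, 116 and 126 TPM in UVB P1.hMR rats. Each P1.hMR rat was below each WT rat, by a difference of -0.17 ± 0.08 (SE) with unadjusted p = 0.0355 and adjusted p = 0.447. Scap also did not overlap, at 91.6, 95.5 and 94.0 TPM and 90.0, 83.6, 90.9, 85.5 and 90.4 TPM, with a difference of -0.09 ± 0.05 (SE) and adjusted p = 0.519. Lower values without overlap were found for these 2 of 32 genes and for 4.14% of all genes. Mylip had a difference of 0.20 ± 0.09 (SE), unadjusted p = 0.0438 and adjusted p = 0.465, with overlapping ranges. In the interaction, the 3 genes were Dhcr7, given above, Ggps1 (0.29 ± 0.10 (SE), unadjusted p = 0.0135) and Scap (-0.16 ± 0.06 (SE), unadjusted p = 0.0236), each with an adjusted p of 0.704. With 3 to 5 rats a group, differences of the size seen here could not be told from the spread between rats.

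A wider list of 60 sterol-related genes outside the 33 was read in the same fit. Of these, 55 were in the table and 54 were tested. In WT rats 6 rose and 6 fell, and in P1.hMR rats 7 rose and 12 fell, with medians of 0.03 and 0.01. These were 11.1% and 11.1% of the 54 in WT, against 11.2% and 10.3% of all genes, so the list was near the share of the whole table. In P1.hMR the 12 falls were 22.2% of the 54, against 20.6% of all genes, and the share of the 7 rises was under the 18.5% of all genes. The largest called rise in both genotypes was that of Apod, a lipid-carrying lipocalin, with 43.5 ± 8.86 TPM in Control WT, 90.7 ± 23.7 TPM in UVB WT, 45.4 ± 8.35 TPM in Control P1.hMR and 94.5 ± 4.51 TPM in UVB P1.hMR rats. Its log2 fold change was 1.03 (adjusted p = 0.000957) and 1.06 (adjusted p = 4.23e-05). Sult2b1, which adds sulfate to cholesterol, rose in P1.hMR by 0.62 (adjusted p = 7.27e-05) and had a change of 0.24 (adjusted p = 0.123) in WT.

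Cyp27a1, the mitochondrial sterol 27-hydroxylase, which makes an oxysterol that can activate liver X receptors, fell in both genotypes. Its mean went from 46.6 ± 7.67 to 29.7 ± 4.32 TPM in WT and from 48.3 ± 4.67 to 23.3 ± 2.53 TPM in P1.hMR. The log2 fold change was -0.63 (adjusted p = 0.00327) and -1.02 (adjusted p = 4.76e-06). Nr1d1, a repressor of the circadian clock with targets in sterol metabolism, fell by 1.04 (adjusted p = 0.00409) and 1.5 (adjusted p = 1.66e-05), and the hour of dissection is not given in the sources used here. In WT, Vldlr, a receptor for triglyceride-rich lipoproteins, fell by 0.74 (adjusted p = 0.0018), and Gramd1c, of a family that moves sterols from the cell membrane to the endoplasmic reticulum, fell by 0.66 (adjusted p = 0.00426). In P1.hMR these 2 fell by 0.43 (adjusted p = 0.00723) and 0.33 (adjusted p = 0.034).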

How the data were processed

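The deposited table holds TPM per gene, 1 column per rat, written with 2 decimals and a decimal comma. Per the study's methods, reads were checked with FastQC, aligned to rn7 with STAR and quantified with rsem, whereas the submitters' processing notes name Trimmomatic, DRAGEN and Picard, and which made the deposited TPM was not settled. TPM keeps no counts, so the study's count test (DESeq2) was not repeated, and no further scaling was applied. Groups were taken from the deposited labels. Values were analysed as log2(TPM + 1), with the 13105 genes of at least 1 TPM in at least 3 rats fitted with limma 3.58.1 in R 4.3.3, in 1 model with a mean per group and a variance trend. P-values are two-sided and Benjamini-Hochberg adjusted over all genes tested. The fold minimum of 0.5 follows the study. Rats of a group are taken as separate animals. The genes, their roles and the marker and sterol lists were chosen with earlier results of these data known. All 33 genes are accounted for, with the value in every rat for those called and for the most abundant of each role. From the wider list, the largest called rises and falls with UVB, up to 3 each, are named. Dhcr7, Srebf1, Srebf2, Insig2 and Scap are given in every rat after their values were seen. Promoter windows come from RefSeq (GRCr8). Other experiments of the study were not analysed here.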

Additional observations from a re-analysis of the deposited data

Results flagged for a closer look

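Of 96 groups of 4 or 5 rats tested for a value far from the others with Dixon's criterion, 3 were marked, and chance marks about 1 in 20 groups. Hmgcs1 stood at 2573 TPM in Control WT replicate 1, against 2020 to 2077 TPM in the other Control WT rats. Insig2 stood at 30.8 TPM in UVB P1.hMR replicate 2, against 24.7 to 26.3 TPM in the others of that group. Abca1 stood at 37.55 TPM in Control WT replicate 3, against 48.7 to 50.2 TPM in the others, and leaving out any 1 rat in turn moved its WT response between -0.81 and -0.60.

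The UVB response of Scap had opposite signs in the 2 genotypes, and neither passed in limma (adjusted p = 0.125 in WT and 0.343 in P1.hMR). Opposite signs were not rare, as 25 of the 32 genes (78.1%) and 80.4% of all genes had the same sign in both. Each UVB WT rat was above the mean of the Control WT rats, by 0.11 on average on the log2 scale, and each UVB P1.hMR rat was below the mean of the Control P1.hMR rats, by 0.05 on average. The interaction in limma was -0.16 (unadjusted p = 0.0236, adjusted p = 0.704).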

How the results depend on the processing

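The table was refitted under 8 other settings and with each of the 17 rats left out in turn. The main fit was also read with no fold minimum and with a minimum of 1. No gene that had passed the test reversed its direction. In WT, the 3 genes called became 1 (Abca1) with quantile normalization, 12 with no fold minimum and 0 at an absolute log2 fold change of 1, and 2 to 5 with a rat left out, 5 without Control WT replicate 1 (with Cyp51 and Lss added). The 12 genes past the adjusted p alone became 6 when only the compared groups were fitted and 7 to 17 with a rat left out, 7 without Control WT replicate 4 and 7 without UVB WT replicate 2. In P1.hMR, the 3 genes called became 14 with no fold minimum and 0 at 1, and 3 to 4 with a rat left out, and the 14 past the adjusted p ranged from 11 to 20. The median difference between genotypes under UVB ranged from -0.07, without UVB WT replicate 1, to 0.04. The cause of these shifts was not tested, beyond fewer rats or a different threshold.

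Replicate numbers were not taken to pair the rats, and the labels name no pairing. Deviations of same-numbered rats correlated over 22 pairs at -0.187 to 0.235, with 4 above 0.1. Rats of different numbers were not read for reference, so these values cannot exclude a pairing. A fit with the replicate block called 3 genes in each genotype, and 9 genes in WT and 16 in P1.hMR passed the adjusted p alone. In WT it left Ebp at 0.50, just under the fold minimum, and Pmvk, Sqle, Nsdhl and Dhcr7 did not pass the adjusted p. Abca1, Fdft1 and Pmvk in P1.hMR and Abca1 in WT kept their calls under all 25 settings that kept the thresholds. Ebp, Cyp51, Sqle, Acat2, Fdps and Npc1 in P1.hMR and Cyp51 in WT, which were under the fold minimum, passed the adjusted p under all 25, Cyp51 in WT only just (adjusted p = 0.05 in limma) when only the compared groups were fitted. Among genes that did not pass, the sign changed in 14 of 500 values in WT (Abcg1, Msmo1, Mylip, Nr1h2 and Srebf2) and in 1 of 450 in P1.hMR (Dhcr7). It changed in 60 of 800 values (20 genes) between genotypes without UVB, in 34 of 800 (14 genes) with UVB and in 31 of 768 (11 genes) in the interaction. TPM with 3 to 5 rats limits the precision, and the number of reads behind each value is unknown.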
